A study of Mus musculus with 16 samples.

Results

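Cytosines in CpG dinucleotides carry 5-methylcytosine (5mC), written by DNA methyltransferases, and this mark can be oxidised by TET enzymes to 5-hydroxymethylcytosine (5hmC). Bisulphite sequencing (BS) reads both marks as methylated, whereas oxidative bisulphite sequencing (oxBS) first oxidises 5hmC with KRuO4 to a form that is read as unmethylated. BS minus oxBS is therefore used as an estimate of 5hmC, a mark known from other work to be abundant in neurons and low in most blood cells, where it lies mainly in the bodies of active genes.

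The libraries described here were the 8 of B cells among the 16 of the series, chosen by the assay named in their titles: 4 BS libraries (male 1 and 4, female 10 and 12) and 4 oxBS libraries (male 2 and 3, female 9 and 11). The B cells were resting CD43- cells, sorted with magnetic beads from spleens of C57BL/6J mice aged 6 to 8 weeks that carried no stated mutation or treatment, by removal of cells bearing CD43, CD4 and Ter-119. The DNA came from pooled animals, so the libraries are not single mice and p-values measure the spread between libraries, which may be technical. The protocol oxidised a portion of each prepared sample and left the rest, but the labels do not say which BS and oxBS libraries share DNA. The 8 T cell libraries (naive CD4+ CD62L+ cells of the same strain, age and organ, 4 BS and 4 oxBS, with 2 of each sex in each assay) served to sort regions by methylation level and as the comparison.

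The B cell libraries held between 123693203 and 171130063 CpG calls, a mean of 5.83 to 8.07 calls per autosomal CpG, and 95.04 to 96.1% of the 20383623 autosomal CpGs had a call. Single CpGs were thus read coarsely, and the precision of the sums below is set by the spread between libraries. The number of chrY CpGs with a call was 99445 to 107148 in the male B cell libraries and 2163 to 3079 in the female ones, as the labels say. The 16 files differed in 1 respect: those of male BS 1 and male BS 4 listed no positions on unplaced contigs, which were not used for any library.

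The sorted cells carried the promoter methylation of B cells. A promoter was taken as the 2 kb centred on the start of the gene (1 kb on each side), and its level as the methylated share of all its calls. The promoter of Cd79a, which encodes a chain of the B cell receptor complex, averaged 11.7% ± 5.98 (SD, n = 8) in B cells and 76.2% ± 5.32 (n = 8) in T cells. The promoter of Cd3e, a chain of the T cell receptor complex, averaged 86.5% ± 1.502 in B cells and 2.63% ± 1.34 in T cells. All 5 B cell markers given here (Cd79a, Cd79b, Ms4a1, Cd22 and Blnk) and 5 of 6 T cell markers (Cd3e, Cd3d, Cd3g, Lck and Cd5) had B and T cell libraries that did not overlap, and the sixth, Cd28, overlapped (89.4% in B and 91.1% in T cells). The share of all promoters without such overlap was not computed, so these counts do not show a trait particular to markers. Summed over each list, the 5 B cell markers lay between 9.99 and 20.7% in the B cell libraries and between 61.9 and 68.4% in the T cell libraries. The 5 myeloid promoters (Csf1r, Lyz2, Mpo, Itgam and Cd14) summed to 36.3 to 43.2% in B and 34.7 to 42.0% in T cells. Of these, Lyz2 did not overlap (36.7 to 54.2% in B and 60.8 to 71.8% in T cells) and the other 4 did. The 3 erythroid promoters (Hbb-bt, Klf1 and Epor) summed to 26.2 to 39.5% in B and 29.04 to 32.6% in T cells, and each overlapped.

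The sequences of these 2 start sites are shown because they are the clearest places to see what a CpG call measures. Each window runs from 250 bases before to 50 bases after the RefSeq start on GRCm38.p6, is printed 5′ to 3′ on the gene's strand, and has its CpGs in capitals. The Cd79a window lies at chr7:24897247-24897546 (plus strand) and the Cd3e window at chr9:45009562-45009861 (minus strand), and each holds 8 CpGs.
Cd79a: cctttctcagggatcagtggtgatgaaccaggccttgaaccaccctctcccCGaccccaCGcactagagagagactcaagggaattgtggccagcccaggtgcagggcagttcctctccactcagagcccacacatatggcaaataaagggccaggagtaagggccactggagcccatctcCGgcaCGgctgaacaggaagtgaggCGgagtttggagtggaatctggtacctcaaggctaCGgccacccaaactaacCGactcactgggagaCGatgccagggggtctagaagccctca
Cd3e: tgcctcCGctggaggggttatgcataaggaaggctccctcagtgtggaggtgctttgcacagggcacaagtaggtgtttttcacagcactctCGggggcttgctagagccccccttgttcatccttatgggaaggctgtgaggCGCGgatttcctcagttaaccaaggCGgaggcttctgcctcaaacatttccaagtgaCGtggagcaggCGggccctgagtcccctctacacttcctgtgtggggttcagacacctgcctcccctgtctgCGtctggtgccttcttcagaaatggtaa
Over the Cd79a window the level was 0% in male BS 1 and 4, 1.43% in female BS 10, 1.82% in female BS 12 and 0% in all 4 oxBS libraries, against 37.7 to 69.5% in T cells. Over the Cd3e window it was 82.5 to 86.6% in the 4 BS libraries and 79.7 to 90.2% in the 4 oxBS libraries, against 0 to 1.14% in T cells. Neither window separated the assays in B cells, while both separated the cell types.

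The first comparison asked whether the B cell BS libraries, which also read 5hmC, were higher than the oxBS libraries in any class of CpG. No class passed the test, and all 4 mean differences were negative. Each autosomal CpG was placed in the first class that held it, in the order promoter (1 kb either side of any annotated transcript start in GENCODE vM21; 2713765 CpGs), exon (1199711), intron (7939854) and intergenic (8530293), and a CpG entered a library's level where 5 or more calls covered it there. In promoters the BS libraries were at 44.5% (male 1), 44.2% (male 4), 47.2% (female 10) and 47.8% (female 12). The oxBS libraries were at 47.2% (male 2), 52.2% (male 3), 46.7% (female 9) and 45.1% (female 11). The male BS libraries were the lowest, male oxBS 3 was the highest, and the groups overlapped. The mean difference, BS minus oxBS, was -1.90 percentage points (45.9% ± 1.83 against 47.8% ± 3.08, SD, n = 4 each; exact permutation p = 0.371, two-sided; adjusted over the 4 classes, 0.429). Without male oxBS 3 it was -0.419 points.

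The other classes gave the same sign with smaller sizes. Exon CpGs were at 85.2% ± 0.444 in BS and 85.6% ± 0.505 in oxBS, a difference of -0.412 points (exact permutation p = 0.229; adjusted 0.429). Introns differed by -0.179 points (86.9% ± 0.341 against 87.1% ± 0.271) and intergenic CpGs by -0.184 points (85.3% ± 0.252 against 85.5% ± 0.172), both with an adjusted exact permutation p of 0.429. Single libraries moved these values: exons lay between -0.618 (without female oxBS 11) and -0.209 (without male oxBS 3), introns between -0.317 (without female BS 10) and -0.0493 (without male BS 4) and intergenic CpGs between -0.296 and -0.0928 (without the same 2 libraries). BS and oxBS libraries overlapped in each of the 4 classes. Every one of the 19 autosomes had a BS level below its oxBS level, with a difference of -0.553 points on the autosome closest to 0. In males the difference was negative on all 19 (-2.33 to -1.45 points) and in females positive on all 19 (0.221 to 0.489), so the common sign is that of the male libraries. All autosomes were read in the same libraries, so they do not count as 19 observations.

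**Figure D1:**
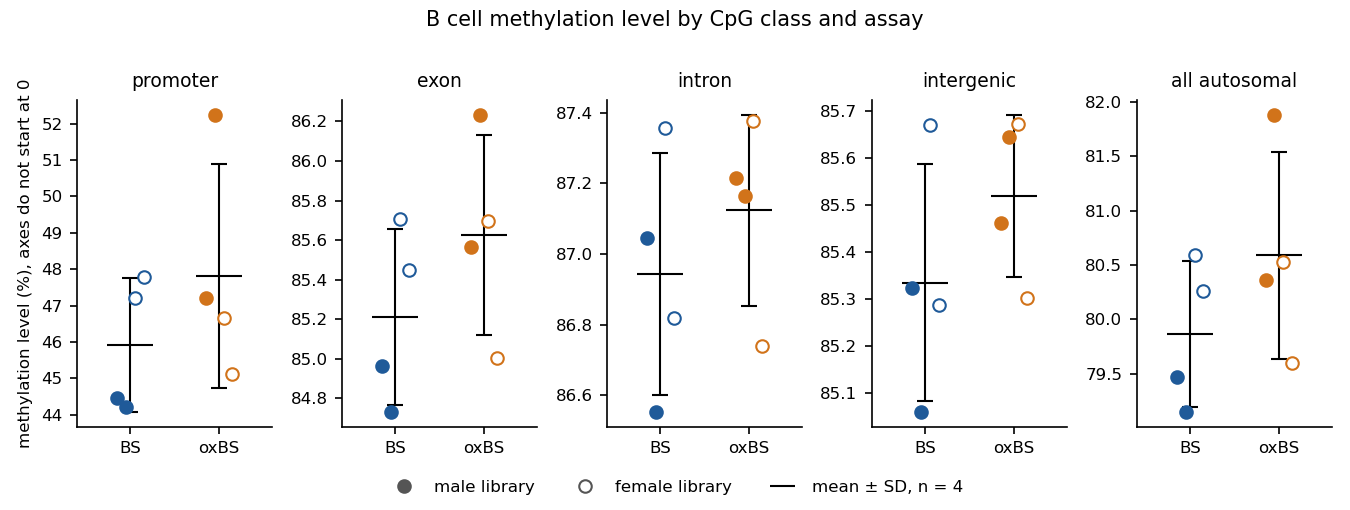
Methylation level (%) of the 8 B cell libraries by CpG class, BS in blue and oxBS in orange, filled points male and open points female, with mean ± SD over 4 libraries. BS and oxBS overlap in each panel, and male oxBS 3 stands highest in promoters at 52.2%. The axes do not start at 0.

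The range of differences that the test did not reject was found by shifting the BS libraries and repeating the exact test at 0.05. This interval was -8.03 to 2.65 points for promoters, -1.502 to 0.701 for exons, -0.821 to 0.618 for introns and -0.611 to 0.368 for intergenic CpGs. For T cells the same classes gave BS minus oxBS of 0.487 (interval -0.609 to 1.63), 1.12 (0.996 to 1.21), 1.37 (1.24 to 1.50) and 0.625 points (0.432 to 0.851). In exons, introns and intergenic DNA the T cell value lay outside the B cell interval, and in promoters it lay inside.

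The B minus T contrast of the assay difference was tested by permuting the assay within each cell type (4900 arrangements). This permutation takes there to be no assay difference in either cell type, rather than an equal difference in both. The assay difference was lower in B cells than in T cells. The contrast was -1.53 points in exons, -1.55 in introns and -0.809 in intergenic CpGs (exact permutation, adjusted p = 0.00816 for each). In promoters the contrast was -2.38 points, which did not pass (exact permutation, adjusted p = 0.210). In T cells no oxBS library overlapped a BS library in exons, introns or intergenic DNA.

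The promoter difference went opposite ways in the sexes. In male B cells both BS libraries were below both oxBS libraries, with a mean difference of -5.38 points, and in female B cells both were above, with a mean difference of 1.59 points. The female minus male contrast was 6.97 points (exact permutation p = 0.0556, the smallest that 36 arrangements allow; adjusted over the 4 classes, 0.222). In exons the male difference was -1.05 and the female 0.227 points, in introns -0.389 and 0.0303, and in intergenic CpGs -0.361 and -0.00788. The male BS libraries are also the pair whose files listed no unplaced contigs, and the part of any difference in their processing in these values was not tested. In T cells the promoter difference was positive in both sexes, 0.206 in males and 0.768 in females.

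Promoter coverage also differed between the B cell libraries, and was lower where promoter level was higher, though not in exact order. Calls per CpG in promoters divided by those in intergenic DNA were 1.26 in male BS 1 and in male BS 4, 1.18 in female BS 10 and in female BS 12, 1.19 in male oxBS 2, 1.06 in male oxBS 3, 1.18 in female oxBS 9 and 1.23 in female oxBS 11. The library with the relatively thinnest promoters, male oxBS 3, had the highest promoter level, and the pair with the relatively deepest, male BS 1 and 4, had the lowest. Over the 8 libraries the ratio and the promoter level were correlated with Pearson's r = -0.992 (exact permutation p = 0.000992; adjusted over these 2 coefficients, 0.00198) and Spearman's rho = -0.881 (exact permutation p = 0.00724). Without male oxBS 3 and male BS 4, which were farthest from the median ratio, r was -0.957 over 6 libraries. Both measures come from the same calls, and with 4 libraries a sex the relation was not computed within sexes. The part of coverage in the assay differences was not tested.

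**Figure D2:**
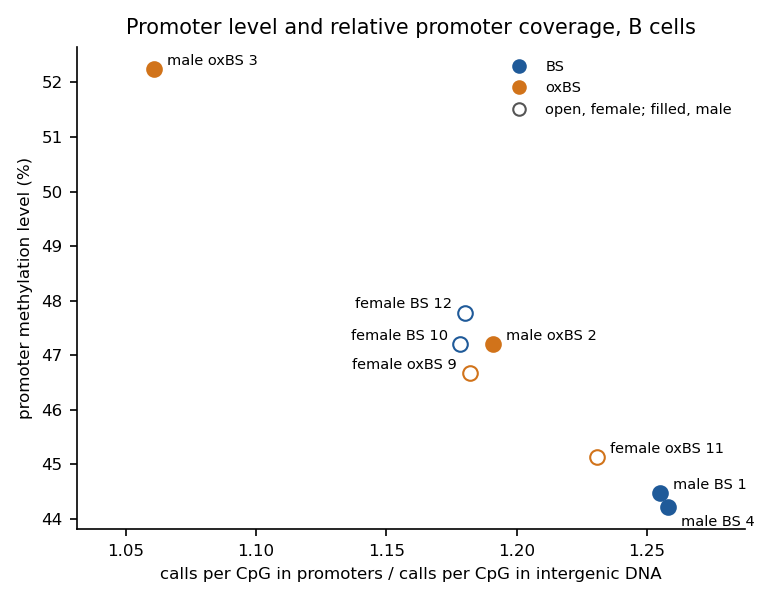
Promoter methylation level (%) against calls per CpG in promoters divided by calls per CpG in intergenic DNA, one point per B cell library, BS blue, oxBS orange, filled male and open female. Level falls from 52.2% at a ratio of 1.06 to 44.2% at 1.26. The axes do not start at 0.

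Because promoters mix unmethylated CpG islands with methylated flanks, the class levels were recomputed over the same CpGs in all libraries with equal weight for each. This alternative was chosen after the values above were seen. Over the 5965483 autosomal CpGs with at least 5 calls in all 8 B cell libraries, BS minus oxBS was -0.105 points in promoters (48.0% ± 0.292 against 48.1% ± 0.382; exact permutation p = 0.657), -0.00612 in exons, -0.0336 in introns and -0.0316 in intergenic CpGs (adjusted p = 0.971 for each of the 4). The male promoter difference was then -0.250 and the female one 0.0409 points. Over the 4254495 CpGs with 5 calls in all 16 libraries, equally weighted, T cells gave 1.06 points in promoters, 1.22 in exons, 1.48 in introns and 0.794 in intergenic DNA, while B cells stayed at -0.105, -0.00573, -0.0342 and -0.0343. The B minus T contrast of the assay difference was then -1.17, -1.23, -1.51 and -0.828 points in these classes (exact permutation, adjusted p = 0.0135 for each), promoters included.

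The distance from the start site was examined in 40 bins of 250 bases, 5 kb to each side of the starts of protein-coding genes, with calls summed. In B cells the difference was negative in all 40 bins, from -1.49 points at 250 to 500 bases downstream to -0.346 at 4750 to 5000 bases downstream, and BS and oxBS libraries overlapped in each bin. In males it ranged from -5.79 to -1.59 and in females from -0.115 to 2.87 points, with -5.79 and 2.87 both in the first 250 bases downstream of the start site. T cells were at 2.54 points 2250 to 2500 bases downstream and at -0.323 in the first 250 bases, positive in 38 bins and without overlap in 36.

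**Figure D3:**
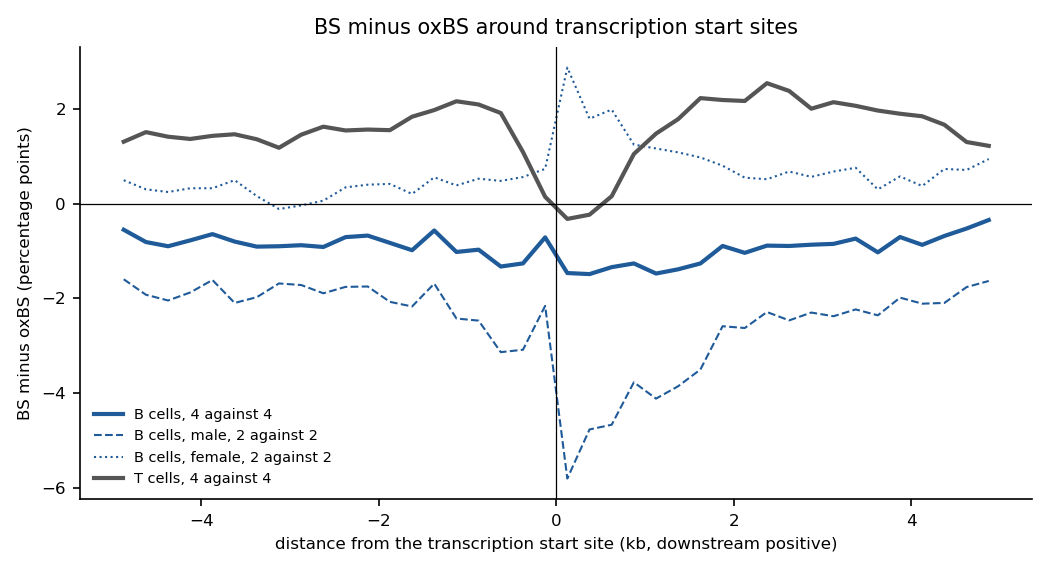
BS minus oxBS (percentage points) in 250-base bins by distance from the transcription start site (kb). B cells (blue, 4 against 4 libraries) stay between -1.49 and -0.346, with male (dashed) and female (dotted) values apart on either side, and T cells (grey) reach 2.54 in the flanks and -0.323 at the start.

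The next comparison sorted the genome by how methylated it was in T cells, so that no B cell library set the groups. The 2081118 tiles of 1 kb with at least 3 CpGs and 20 pooled T cell calls were placed in 10 bins by T cell level. B cells gave BS minus oxBS of -0.446 points in tiles at 0 to 10%, -0.856 at 10 to 20%, -0.680 at 20 to 30%, -0.616 at 30 to 40% and -0.473 at 40 to 50%. The upper bins were closer to 0, at -0.337, -0.232, -0.132, -0.0722 and -0.0294 points. Single libraries moved these values. Leaving out each gave -1.42 to -0.549 points at 10 to 20%, -0.927 to -0.140 at 40 to 50% and -0.472 to -0.00796 at 60 to 70%. No bin passed the exact permutation test (adjusted p = 0.686 in all 10), and BS and oxBS libraries overlapped in each.

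Tiles at 40 to 50% in T cells show the libraries behind these values. The BS libraries were at 52.1% (male 1), 50.6% (male 4), 52.7% (female 10) and 51.0% (female 12), and the oxBS libraries at 52.7% (male 2), 52.0% (male 3), 52.9% (female 9) and 50.7% (female 11). Each assay held high and low libraries of both sexes. The interval of the B cell difference in this bin was -2.31 to 1.98 points.

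In T cells the same bins gave 0.462, 2.20, 2.68, 4.22, 4.31, 3.85, 2.94, 1.91, 1.04 and 0.854 points from the lowest to the highest, with no overlap. These libraries also set the bins, so the T cell values and their contrast with B cells are a description, with no test. The B minus T contrast was below 0 in all 10 bins, between -4.84 points (tiles at 30 to 40%) and -0.883 (tiles at 90 to 100%). From 10% upward the T cell value also lay above the upper bound of the B cell interval in every bin.

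**Figure D4:**
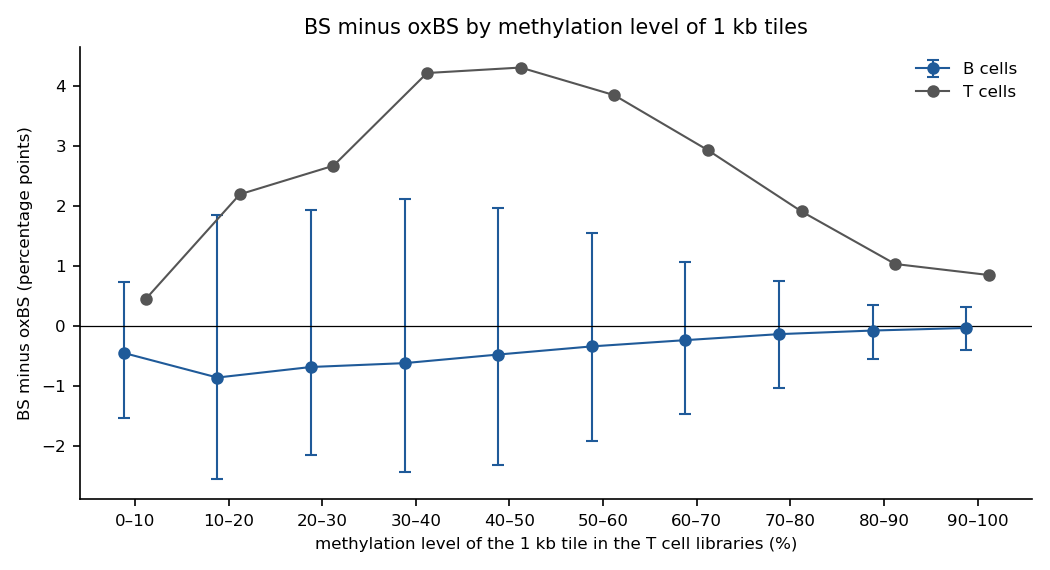
BS minus oxBS (percentage points) in 1 kb tiles grouped by their methylation level in T cells (%), B cells blue and T cells grey. Bars on the B cell points are the shifts that the exact permutation test does not reject at 0.05. The B cell points run from -0.856 to -0.0294 with bars across 0, and the T cell points peak at 4.31 in tiles at 40 to 50%.

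Promoters of protein-coding genes sorted the same way gave -0.719 points for the 11722 that were at most 20% methylated in T cells, -1.25 for the 3649 at 20 to 80% and -0.0370 for the 4751 at 80% or more. The intervals were -2.30 to 0.962, -4.42 to 1.86 and -0.291 to 0.167 points. In T cells these promoters stood at 0.687, 1.2997 and 0.372 points. Methylated promoters were thus the most tightly measured in B cells, and their difference was the closest to 0 of the 3 groups.

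Genes were then tested one by one. For each of 18093 protein-coding gene bodies with at least 10 CpGs and 200 calls in each B cell library, the calls were fitted with a logistic model of assay and sex, whose dispersion was moderated across genes with limma. None was called at an adjusted p under 0.05 in either direction (0% called), while 865 (4.78%) had an unadjusted p under 0.05, 112 with BS higher (0.619%) and 753 with BS lower (4.16%). With each library centred on its own autosomal level these were 327 and 506, on shared CpGs with equal weight 256 and 375, in male libraries alone 63 and 2139 and in female ones 580 and 180. limma on logit levels also called 0, and the model with each gene's own dispersion called 1, Hist1h3e (a histone H3 gene in a cluster of near-identical copies; chosen after its values were seen), at an adjusted p of 0.00249. The difference was negative in 66.6% of genes, with a median of -0.440 points and a central 95% range of -4.91 to 2.72. When each library was left out, the median lay between -0.730 (without female oxBS 11) and -0.233 (without male BS 4), and the number with BS lower at an unadjusted p under 0.05 between 429 (without male oxBS 3) and 1420 (without female oxBS 11). Without CpGs within 1 kb of a start, 15759 gene bodies were tested, 0 were called and the median was -0.0552 points. The same model in T cells called 2565 of 18086 gene bodies with BS higher (14.2%) and 26 with BS lower (0.144%), with a median of 1.05 points. The assay by cell type term called 1305 gene bodies (7.22%) with a lower difference in B cells and 4 (0.0221%) with a higher one.

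The 5 gene bodies with the largest negative difference are given as values, since none was called. They were Mfap1a (-11.8 points; a spliceosome-associated protein), Rasl2-9 (-10.9), Bzw1 (-10.8), Gm14325 (-10.7) and Arf5 (-10.7; a small GTPase of vesicle traffic). Mfap1a, at chr2:121491911-121506665, had BS levels of 50% (male 1), 62.8% (male 4), 60.5% (female 10) and 55.7% (female 12) and oxBS levels of 70.6% (male 2), 69.95% (male 3), 72.8% (female 9) and 62.9% (female 11). All 4 BS libraries were below all 4 oxBS libraries, narrowly so at 62.8% against 62.9%, and the log odds ratio was -0.515 ± 0.140 (SE; adjusted p = 0.980 in the quasi-binomial model). BS and oxBS did not overlap, with BS lower, in 427 gene bodies (2.36%).

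The share of calls that fell in the first 1 kb was computed for Mfap1a, Bzw1 and Arf5, and separated the assays, narrowly, in Mfap1a and Bzw1. In Mfap1a this stretch took 38.93 to 52.7% of the gene's calls in BS and 30.5 to 38.87% in oxBS libraries, and was 5.71 to 20.8% methylated. The rest of the gene was at 96.1% in both assays. In Bzw1 the first 1 kb, at 0 to 0.468% methylation, took 49.8 to 62.5% of calls in BS and 36.4 to 49.3% in oxBS libraries. In Arf5 the assays overlapped, at 58.5 to 72.1% in BS and 48.4 to 62.6% in oxBS, and the rest of the gene was at 95.7% and 97.9%. On CpGs with 5 calls in all 8 libraries and equal weight, Mfap1a differed by 0.375, Bzw1 by 0.0182, Rasl2-9 by -0.198 and Arf5 by -0.462 points.

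The 5 gene bodies with the largest positive difference were Cox7a2 (7.97 points; a subunit of cytochrome c oxidase), 1810010D01Rik (7.78), Rpl35a (7.22; a protein of the large ribosomal subunit), Lrr1 (7.20) and Zfp36l1 (7.10; an RNA-binding protein that promotes mRNA decay). 1810010D01Rik, at chr7:145205825-145208119, had BS levels of 58.8% (male 1), 63.4% (male 4), 58.9% (female 10) and 56.1% (female 12) and oxBS levels of 54.5% (male 2), 55.3% (male 3), 51.1% (female 9) and 45.2% (female 11). The groups did not overlap, as for 85 gene bodies in this direction (0.470%), and the adjusted p was 0.980. In Cox7a2 the unmethylated first 1 kb took 45.9 to 61.5% of calls in BS and 58.0 to 69.1% in oxBS libraries, and the rest of the gene was at 95.6% and 95.2%. Outside the first 1 kb, Lrr1 was likewise close between the assays (95.7% in BS and 95.5% in oxBS), while BS stayed above oxBS on average in Rpl35a (79.9% and 74.7%), Zfp36l1 (54.1% and 46.5%) and 1810010D01Rik (41.2% and 33.9%). With equal weight on shared CpGs, Cox7a2 was at -1.003, Rpl35a at -0.610 and Zfp36l1 at -0.389 points, Lrr1 at 0.392 and 1810010D01Rik at 2.42.

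Promoters gave a like picture. Of 18231 tested, 0 were called in either direction by the quasi-binomial model (0%), by limma on logit levels or with each promoter's own dispersion, and 956 (5.24%) had an unadjusted p under 0.05, 201 with BS higher (1.1%) and 755 with BS lower (4.14%). The balance depended on the setting, with 319 higher and 605 lower after centring, 290 and 419 on shared CpGs with equal weight, 150 and 1701 in male and 539 and 282 in female libraries alone. BS and oxBS did not overlap in 126 promoters with BS higher (0.691%) and in 380 with BS lower (2.08%). In T cells the model called 347 of 18175 promoters with BS higher (1.91%) and 4 with BS lower (0.022%), and the assay by cell type term called 26 with a lower difference in B cells (0.143%) and 0 with a higher one (0%). The largest negative differences were in Gm13277 (-17.5 points), Ipcef1 (-13.9), Zmynd10 (-13.7), Fam81b (-13.1) and Fyb (-13.0; an adaptor protein of T cell signalling). The largest positive ones were in Sp110 (11.5), Fgd3 (11.4), Chrna9 (11.4; a nicotinic acetylcholine receptor subunit), Myl10 (10.6) and Btn2a2 (10.5; a butyrophilin). The smallest p was that of Zmynd10, which encodes a protein needed to assemble the motors of motile cilia.

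The Zmynd10 promoter was at 34.6% (male 1), 29.5% (male 4), 25.2% (female 10) and 30.1% (female 12) in BS and at 48.2% (male 2), 41.4% (male 3), 45.9% (female 9) and 38.9% (female 11) in oxBS libraries. All BS libraries were lower, and the log odds ratio was -0.604 ± 0.115 (SE; unadjusted p = 3.65e-05, adjusted p = 0.665 in the quasi-binomial model). The 300 bases around its RefSeq start, at chr9:107547054-107547353 (plus strand, GRCm38.p6), are shown because they hold 17 of the promoter's 48 CpGs, again in capitals.
Zmynd10: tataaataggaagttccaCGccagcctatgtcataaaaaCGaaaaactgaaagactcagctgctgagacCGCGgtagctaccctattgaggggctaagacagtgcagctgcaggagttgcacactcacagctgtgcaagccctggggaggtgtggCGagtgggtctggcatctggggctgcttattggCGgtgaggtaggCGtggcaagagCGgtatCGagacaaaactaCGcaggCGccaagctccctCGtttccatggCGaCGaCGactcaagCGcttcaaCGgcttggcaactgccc
These CpGs were 0 to 4.23% methylated in every B cell library of both assays. They took 42.5 to 43.9% of the promoter's calls in the 4 BS libraries and 27.5 to 35.1% in the 4 oxBS libraries. The rest of the promoter was at 51.6% in BS and 61.7% in oxBS. With equal weight on shared CpGs the promoter differed by -1.69 points (limma, adjusted p = 0.968). Of the other named promoters with a value on shared CpGs, Fyb was at 1.26, Sp110 at 7.31, Btn2a2 at 6.86 and Myl10 at 4.74 points, so the positive ones kept more of their difference, with unadjusted limma p of 0.0405 for Sp110, 0.0326 for Btn2a2 and 0.125 for Myl10 (adjusted p = 0.968 for each).

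The genes of the cytosine modification machinery were examined as a list of 25, of which 24 were tested. None was called, 4 had an unadjusted p under 0.05 with BS lower (4.16% of all gene bodies had) and 0 with BS higher (0.619% of all), and the median was -0.984 points beside -0.440 over all genes. Among the enzymes that oxidise 5mC, Tet1 was at 0.501, Tet2 at -0.583 and Tet3 at -1.43 points, with BS and oxBS libraries overlapping. Of the methyltransferases, Dnmt1, which maintains methylation after replication, was at 0.0786 points, and Dnmt3a and Dnmt3b, which set it de novo, at -2.41 and -3.41. The 3 largest differences were in Tdg (-7.54), Mbd3 (-6.30) and Cxxc4 (-5.00). Tdg and Mbd3 were among the 4 with an unadjusted p under 0.05, and Cxxc4 was not (quasi-binomial model, unadjusted p = 0.101). The median of the list on shared CpGs is not given here. The sign turned for Tdg and Mbd3 with equal weight on shared CpGs, and for Cxxc4 in female libraries alone.

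Tdg, at chr10:82629828-82650799, encodes the glycosylase that excises further oxidised forms of 5mC. Its gene body was at 71.5% (male 1), 74.5% (male 4), 76.0% (female 10) and 72.4% (female 12) in BS and at 81.9% (male 2), 83.5% (male 3), 79.1% (female 9) and 80.1% (female 11) in oxBS libraries. The groups were apart, with an unadjusted p of 0.000705 and an adjusted p of 0.980 in the quasi-binomial model. The first 1 kb, 3.04 to 11.98% methylated, took 22.7 to 26.2% of the calls in BS and 14.1 to 18.01% in oxBS libraries. Outside it, Tdg was at 95.9% in BS and 95.4% in oxBS, and with equal weight on shared CpGs the gene body differed by 0.368 points.

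The list of 25 B cell identity and signalling genes, taken to be active in these cells, had 0 genes called. Expression was not measured in these libraries. It had 0 at an unadjusted p under 0.05, beside 4.16% of all gene bodies with BS lower and 0.619% with BS higher. At these shares, 0 of 25 does not set the list apart. Its differences ran from -4.74 to 1.13 points, with a median of -0.602, 18 below 0 and 7 above. Pax5 and Ebf1, the transcription factors that hold B cell identity, were at -0.602 and 0.0777 points, and Bach2, a repressor of plasma cell fate, at -0.342. The largest differences were in Tnfrsf13c (-4.74; the receptor for the survival factor BAFF), Cd79a (-3.14) and Foxo1 (-1.84; a transcription factor downstream of receptor signalling). Leaving out each library put Tnfrsf13c between -9.23 (without male BS 1) and -0.370 (without male oxBS 2) and Cd79a between -5.65 (without female BS 10) and -0.551 (without female BS 12), and with equal weight on shared CpGs they were at -0.936 and -0.529 points. Foxo1 lay between -3.48 and -0.810, and its sign turned with equal weight on shared CpGs and in female libraries alone. In T cells the same 25 gene bodies had a median of 1.86 points, with 7 called with BS higher (14.2% of all gene bodies were). Foxo1 (13.6 points) and the B cell receptor gene Cd79a (10.3) were among these 7. The assay by cell type term called 5 of the list lower in B cells (7.22% of all).

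Several of these B cell genes varied more between libraries of one assay than between the assays. The Tnfrsf13c gene body was at 40.5% (male 1), 17.8% (male 4), 28.3% (female 10) and 21.5% (female 12) in BS and at 44.9% (male 2), 22.1% (male 3), 39.6% (female 9) and 20.5% (female 11) in oxBS libraries. Cd79a was at 20.8%, 14.5%, 25.1% and 9.76% in BS and at 24.9%, 17.2%, 27.1% and 13.5% in oxBS, in the same order. In both genes libraries 1, 10, 2 and 9 were above libraries 4, 12, 3 and 11. The summed promoters of the 5 B cell markers had the same order, at 17.9%, 19.1%, 20.7% and 16.97% against 13.6%, 10.6%, 9.99% and 10.8%. The summed myeloid promoters had it too, at 42.6%, 43.2%, 42.9% and 41.9% against 40.7%, 36.3%, 40.8% and 38.5%, while the T cell marker and erythroid sums did not. How many genes of the list had this order was not counted. Each assay held 2 libraries at each level, and the part of this spread in the B cell result was not tested.

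The 25 T cell identity and signalling genes, taken to be largely silent in B cells, ran from -1.08 to 1.47 points. Their median was -0.274 and 0 were called. The list had 0 at an unadjusted p under 0.05, beside 4.16% of all gene bodies with BS lower and 0.619% with BS higher. The largest differences were in Gata3 (1.47), Lef1 (-1.08) and Trat1 (-0.910). Gata3 was the only member with all BS above all oxBS libraries (0.470% of all gene bodies), at an unadjusted p of 0.151 in the quasi-binomial model. Lef1, a transcription factor of naive T cells, had BS levels of 79.1%, 79.95%, 82.4% and 80.4% and oxBS levels of 80.9%, 80.8%, 82.9% and 81.5%. Its sign turned with equal weight on shared CpGs. In T cells the list had a median of 11.7 points, with 24 of 25 called with BS higher (14.2% of all). The assay by cell type term was called lower in B cells for 23 of the 25 (7.22% of all). The brain synapse list, taken as genes not used by lymphocytes, had a median of -0.254 points in B cells and 0.0733 in T cells. In B cells 0 genes were called, and in T cells 1 was (14.2% of all). In B cells 1 had an unadjusted p under 0.05 with BS lower (4.16% of all), and 1 did not overlap, with BS lower (2.36% of all). Grin1, a glutamate receptor subunit, had the largest B cell difference of the list at -2.89 points.

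**Figure D5:**
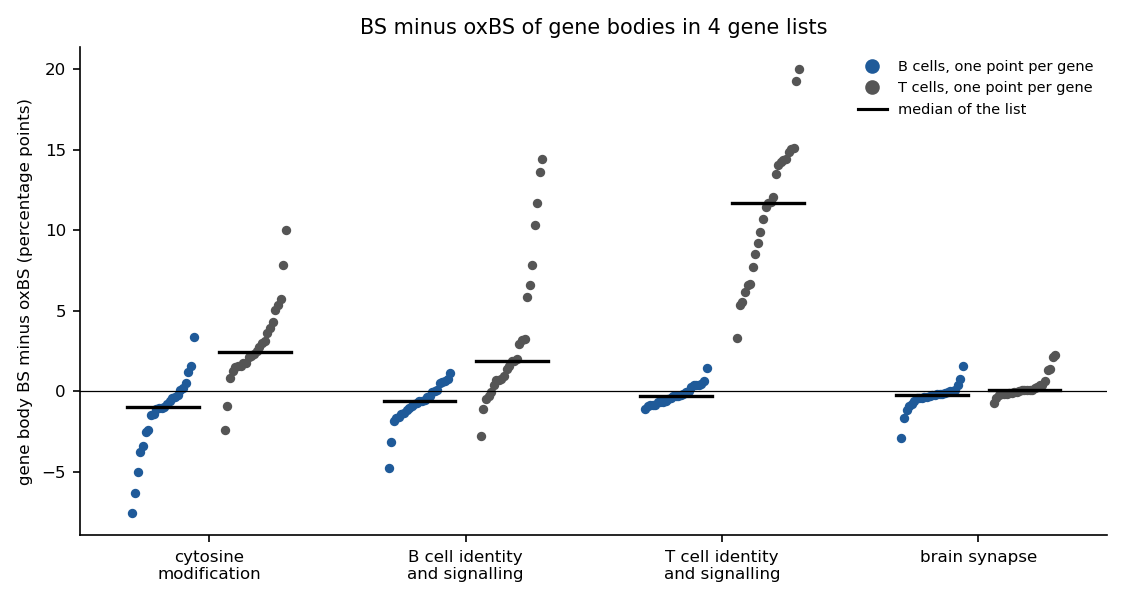
BS minus oxBS (percentage points) of gene bodies in 4 gene lists, one point per gene, B cells blue and T cells grey, with the median as a line. The B cell medians lie between -0.984 and -0.254, and the T cell identity list has a median of 11.7 in T cells.

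Promoters of the lists had medians of 0.0747 points for cytosine modification, -0.0604 for B cell identity, 0.260 for T cell identity and -1.01 for brain synapse genes, beside -0.355 over all promoters, and none was called. Dnmt3a (-4.59), Slc17a7 (-9.26; a vesicular glutamate transporter) and Dlgap1 (-3.26; a postsynaptic scaffold protein) had an unadjusted p under 0.05 with BS lower, beside 4.14% of all promoters.

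The mitochondrial chromosome, which is taken to be unmethylated, served as the conversion control. Its methylated share of CpG calls was 0.324% (95% Clopper-Pearson interval 0.284 to 0.368) in male BS 1, 0.0965% (0.0761 to 0.121) in male BS 4, 0.485% (0.436 to 0.537) in female BS 10 and 0.312% (0.268 to 0.362) in female BS 12. The oxBS libraries were at 1.21% (1.12 to 1.29; male 2), 0.274% (0.237 to 0.316; male 3), 0.298% (0.262 to 0.339; female 9) and 0.251% (0.216 to 0.289; female 11). Male oxBS 2 stood above the other 7, and the intervals cover counting error only, over 56064 to 79816 calls. BS minus oxBS was -0.203 points (exact permutation p = 0.714), and 0.0298 without male oxBS 2. In T cells all BS libraries were above all oxBS libraries on this chromosome, by 0.0876 points (exact permutation p = 0.0286). Without male oxBS 2 the difference was -2.10 points in promoter CpGs, -0.401 in the median gene body, -0.155 in the median promoter (-0.355 with it) and -0.236 in tiles at 0 to 10% (-0.446 with it). With each library corrected by its chrM share, it was -1.79 points in promoters, -0.383 in exons, -0.153 in introns, -0.155 in intergenic CpGs and -0.251 in tiles at 0 to 10%, and no class or tile bin passed the exact permutation test.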

How the data were processed

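DNA methylation was measured by whole-genome BS and oxBS sequencing. According to the processing notes, the authors trimmed reads with Trim Galore 0.6.0, aligned them to mm10 (GRCm38) with Bismark 0.20.0 and used SAMtools 1.3.1. Their methods keep alignments with MAPQ of at least 10 and treat both assays alike. The deposited files hold, per CpG with both strands added by the authors, the counts of unmethylated and methylated calls of 1 library, not normalised. Positions that are not a CpG of the reference, 44943 to 61862 per B cell library, were left out. The synthetic 5mC and 5hmC spike-ins were not analysed here, so incomplete oxidation or conversion would enter BS minus oxBS directly.

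Calls were summed over reference CpGs of chromosomes 1 to 19, with annotation from GENCODE vM21, and libraries were grouped by cell type and assay from their labels. Class and tile levels used CpGs with at least 5 calls in the library, and gene models used all calls. Differences of levels were tested with exact permutation tests over libraries, and p-values were adjusted by the Benjamini-Hochberg method over the classes, bins or features of a family. Gene bodies and promoters were tested by quasi-binomial logistic regression on assay, adjusted for sex, with the dispersion moderated by limma 3.58.1 (R 4.3.3), with at least 10 CpGs and 200 calls per library for gene bodies and 5 CpGs and 50 calls for promoters. Python 3.11.15, NumPy 2.4.6, SciPy 1.17.1 and pandas 2.3.3 were used, and the models were tested on simulated data. At the depths and dispersions of the B cell libraries, 1 of 50 gene bodies with a simulated difference of 2 points was called (2%). At 5 points 12 of 50 were called (24%) and at 10 points 37 of 50 (74%), so small differences confined to few genes would mostly be missed. These genes were drawn away from the extremes of methylation, and 17893 gene bodies had no simulated difference. A difference shared by many genes was not simulated. Alternatives changed the minimum calls, promoter width, CpG set, sex term, dispersion and test, or left out each library.

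Genes named were, in each direction and in the absence of calls, the 5 with the largest difference, the 3 largest of each of 4 gene lists, and cell type markers, some of which are not reported here. The members and lists were chosen with earlier results of these data known. Pearson's and Spearman's coefficients of coverage, the share of calls in gene starts and the T cell gene models were added after values had been seen. So were the Tet, Dnmt, Pax5, Ebf1, Bach2, Cd79b and Cd74 gene body values.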

Additional observations from a re-analysis of the deposited data

Results flagged for a closer look

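Male oxBS 2 lay far from the other 3 B cell oxBS libraries on the mitochondrial chromosome, at 1.21% against a nearest value of 0.298%, a gap above Dixon's critical value for 4 libraries. Chance sets apart about 1 in 20 such groups.

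The B minus T contrast of the assay difference was -1.56 points over all autosomal CpGs (exact permutation p = 0.0147). It was -1.53 in exons, -1.55 in introns and -0.809 in intergenic CpGs (exact permutation, adjusted p = 0.00816 for each). This permutation takes there to be no assay difference in either cell type, so it does not test for an equal difference in both. Over all autosomal CpGs the T cell value of 0.835 points lay inside the B cell interval of -2.73 to 0.990. B and T cells were sorted with different kits, and whether their libraries were prepared together is not given in the sources used here, so cell type and preparation cannot be told apart.

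In B cell promoters every male library pair moved one way and every female pair the other, and the female minus male contrast of the assay difference was 6.97 points. The exact permutation p of 0.0556 is the smallest that 2 against 2 in each sex can give, and it was 0.222 after adjustment. The relative promoter coverage was 1.26 and 1.26 in the male BS libraries and 1.19 and 1.06 in the male oxBS libraries. In females it was 1.18 and 1.18 in BS and 1.18 and 1.23 in oxBS libraries. Whether coverage had a part in the contrast was not tested. With equal weight on shared CpGs the male difference was -0.250 and the female one 0.0409 points.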

How the results depend on the processing

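No class, tile bin, gene body or promoter difference of the B cells passed or left its side of the threshold under another setting, except that 1 gene body was called with BS lower when each gene kept its own dispersion. No paired analysis was made because the BS and oxBS libraries share no replicate numbers and the labels do not name partners. At 2 against 2 libraries the smallest exact p is 0.333 so values within a sex could not pass, and at 3 against 4 it is 0.0286.

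In the female libraries alone the sign turned positive over all autosomal CpGs (0.362 points), in promoters (1.59), exons (0.227) and introns (0.0303), and in tiles at 0 to 10% (0.241), 10 to 20% (0.180), 20 to 30% (0.265), 30 to 40% (0.0134), 40 to 50% (0.0462), 50 to 60% (0.0416), 70 to 80% (0.0362) and 80 to 90% (0.00460). The chrM difference turned to 0.124 in females and 0.0298 without male oxBS 2, with a range of -0.289 to 0.0298 when each library was left out. Leaving out each library gave -2.79 to -0.419 points in promoters and -0.301 to 0.0417, -0.168 to 0.0240 and -0.102 to 0.0366 in tiles at 70 to 80%, 80 to 90% and 90 to 100%. There the sign turned without male BS 4 (0.0417, 0.0240 and 0.0366), and at 90 to 100% also without female BS 12 (0.0107), male oxBS 2 (0.000905) and female oxBS 9 (0.0268). With at least 10 calls per CpG the promoter difference was -3.46 points, with 1 call -1.40, and over shared CpGs with pooled calls -0.838.

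The B minus T contrast in promoters passed only with equal weight on CpGs shared by all 16 libraries (-1.17 points, adjusted p = 0.0135, chosen after seeing the data). Without male oxBS 3 it was -0.906 points.

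Among single features, the sign turned in female libraries for the gene bodies of Cxxc4 (1.37 points) and Foxo1 (0.124) and the promoter of Gm13277 (0.230), and without promoters for Mfap1a (0.0581) and Gata3 (-0.715). With equal weight on shared CpGs it turned for Cox7a2 (-1.003), Rpl35a (-0.610), Zfp36l1 (-0.389), Mfap1a (0.375), Bzw1 (0.0182), Tdg (0.368), Mbd3 (0.399), Foxo1 (1.15), Lef1 (0.108) and the promoter of Fyb (1.26). The cause was not tested. The median gene body difference was -1.22 points in male and 0.272 in female libraries, and at most 4 libraries of each assay and about 7 calls per CpG limit all values.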

Other observations

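B cell libraries were weakly correlated with one another across the assays, in a regular arrangement. Over 104643 tiles of 1 kb at intermediate methylation (20 to 80%), the deviations of each BS library from the BS mean were correlated with those of each oxBS library from the oxBS mean. Male BS 1 correlated positively with male oxBS 2 (r = 0.0632) and female oxBS 9 (0.0581), and female BS 10 with the same libraries (0.0521 and 0.0508). Male BS 4 correlated positively with male oxBS 3 (0.0486) and female oxBS 11 (0.0564), and female BS 12 with the same libraries (0.0540 and 0.0562). The other 8 combinations were between -0.0722 and -0.0427. Deviations from an assay mean cancel out over the libraries of that assay, so positive values with some partners force negative ones with others. The tiles are not independent, each library enters 4 of the 16 values, and the labels give no grouping of this kind, so the values are a description with no test.

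The gene bodies of Cd79b and Cd74 are given as examples of this same order. The order was read from these libraries, and the share of all gene bodies that had it was not counted. It was not particular to B cell genes. In tiles at 90 to 100% in T cells, libraries 1, 10, 2 and 9 were at 93.97%, 94.09%, 93.99% and 94.07%. Libraries 4, 12, 3 and 11 were at 93.67%, 93.75%, 93.76% and 93.78% there. Cd79b, a chain of the B cell receptor complex, was at 41.5% (male 1) and 38.2% (female 10) against 23.8% (male 4) and 20.6% (female 12) in BS, and at 37.2% (male 2) and 40.0% (female 9) against 17.0% (male 3) and 26.9% (female 11) in oxBS libraries. Cd74, the invariant chain of antigen presentation, was at 76.4% and 72.1% against 62.3% and 59.1% in BS, and at 76.4% and 71.4% against 66.1% and 59.1% in oxBS libraries. BS minus oxBS was 0.750 points in Cd79b and -0.749 in Cd74.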
